A study of Macaca fascicularis with 48 samples.

Results

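Cervical dorsal root ganglia were compared with cervical spinal cord in untreated cynomolgus monkeys (Macaca fascicularis). The comparison used 8 of the 48 RNA-seq libraries of a study of GS-8873, a compound that the submitters tie to hepatitis B virus. The 8 libraries are the ones titled as cervical ganglion controls 1 to 4 and cervical cord controls 1 to 4. They came from the same 4 animals, 2 males and 2 females, so that each animal gave 1 library of each tissue. Control monkeys were gavaged for 13 weeks at a dose of 0 mg/kg/day. The labels used here give neither the age of the animals nor the vehicle. Dosed monkeys, which received 6 mg/kg/day, are used only to set values of other animals beside those of the controls. Whole tissue was kept in RNAlater and RNA was read as 50 bp pairs from TruSeq stranded mRNA libraries. Levels are CPM, counts scaled to library size by TMM, and are given in the order of animals 1 to 4.

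A dorsal root ganglion holds the cell bodies of the sensory neurons of one body segment. Each cell body is wrapped in satellite glia, and the axons are ensheathed by Schwann cells and bundled by fibroblasts and a perineurial sheath. The spinal cord holds interneurons and motor neurons, astrocytes, microglia, ependyma and oligodendrocytes, the cells that make central myelin. The neurons and glia of the ganglion derive from the neural crest and those of the cord, other than microglia, from the neural tube. In whole tissue, fewer cells of a type and less RNA per cell cannot be told apart, so each difference below is one between tissues and not between cells.

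The 8 libraries held 42056226 to 52889142 counts each. Cord 1 stood apart from the other 3 cord libraries, with correlations of log2 CPM of 0.863 to 0.914 to them, while cord 2 to 4 correlated at 0.958 to 0.974 among themselves and the 4 ganglion libraries at 0.956 to 0.985. Cord 1 was low in genes of neuronal cell bodies and high in genes of peripheral nerve. Its SNAP25, a synaptic vesicle fusion protein, stood at 16.1 CPM against 905.6 to 2327 in cord 2 to 4, and its PRX, periaxin of the peripheral myelin sheath, at 1539 CPM against 4.67, 116 and 6.99. Cord 3 carried less PRX than cord 1, and cord 2 and 4 carried almost none. Counts of genes are therefore given for all 4 animals and again without animal 1. For all genes and for some lists, they are also given without cord 1 and without the animal block. Ganglion 4 had the lowest summed level of neuronal genes (8383 CPM over 18 genes, against 14950.0 to 17880.0) and the highest of fibroblast genes (17380.0 CPM against 5092 to 8160.0). Cord 4 held the most CHAT, the enzyme of motor neurons that makes acetylcholine, at 20.7 CPM against 0.173 to 0.402 in the other 3. The mitochondrial genome took 6.97% to 9.38% of counts in ganglia and 8.77% to 17.2% in cord. The part of these library differences in the results was not tested.

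**Figure D1:**
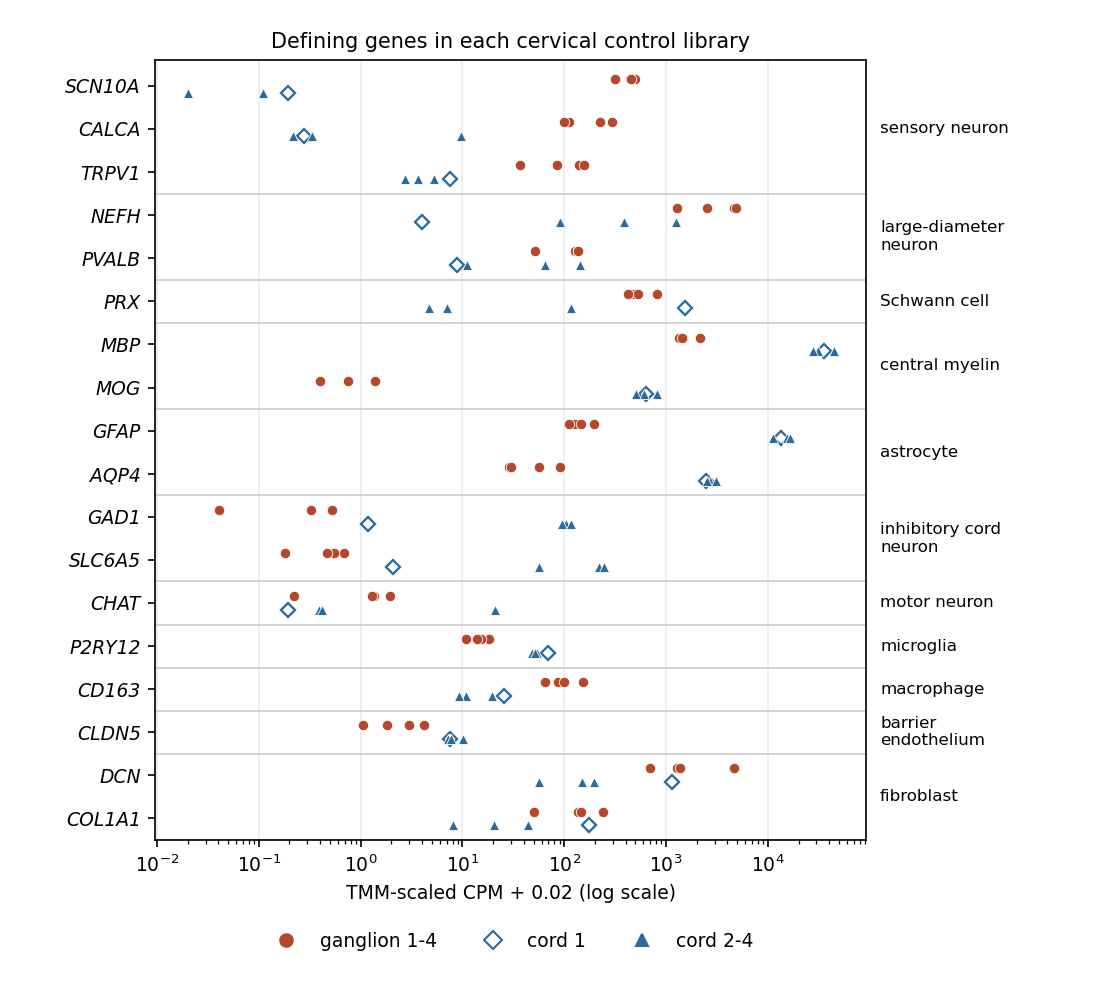
Level of defining genes of 11 cell classes in each of the 8 libraries, as CPM plus 0.02 on a log axis, so that a gene with no count sits at 0.02. Ganglion libraries are circles, cord 1 is an open diamond and cord 2 to 4 are triangles. SCN10A, CALCA and TRPV1 separate the tissues in all 8 libraries and PVALB overlaps between them, while cord 1 lies above the ganglia for PRX and below the other cord libraries for GAD1 and SLC6A5.

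The defining genes SCN10A and MOG matched the tissue labels. SCN10A, a sodium channel of pain-sensing neurons, stood at 315 to 491 CPM in ganglia and at 0 to 0.173 CPM in cord. MOG, a protein of central myelin, stood at 0.374, 1.36, 0.733 and 0.730 CPM in ganglia and at 637, 810.3, 609.6 and 511 CPM in cord. Neither gene overlapped between the tissues, which was also part of the rule that chose both as leading genes. Other defining genes, among them PRX, PVALB and CHAT, did overlap, as described below.

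Of 14236 genes tested, 2283 were higher in ganglia (16%) and 2689 were lower (18.9%) by edgeR's quasi-likelihood test, with animal as a block and a Benjamini-Hochberg adjusted p under 0.05. A stricter test for a difference over 2-fold passed 362 genes higher (2.54%) and 680 lower (4.78%) in ganglia. The 4 ganglion libraries all lay above the 4 cord libraries for 2939 genes (20.6%), and all lay below them for 3285 (23.1%). Without animal 1, 1876 genes were higher (13.1%) and 2339 lower (16.3%), with 471 (3.29%) and 731 (5.11%) over 2-fold. Without the animal block, 3228 were higher (22.7%) and 3363 lower (23.6%), with 615 (4.32%) and 930 (6.53%) over 2-fold. Without the block and without cord 1 alone, a choice made after seeing the data, 3668 were higher (25.5%) and 3534 lower (24.6%), with 967 (6.72%) and 1134 (7.88%) over 2-fold. Leaving out animal 2 left 269 higher and 672 lower, leaving out animal 3 left 251 and 496, and leaving out animal 4 gave 3209 and 3477, so the counts depend on which 3 animals are used. The median log2 fold change over all genes was 0.04. These shares of all genes are the background of each list below, where 2 counts in a row are the members higher and those lower. Below, higher and lower always mean in ganglia against cord and past the first test, and the words over 2-fold are kept for the stricter one.

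Ion channels of sensory neurons led the genes of the ganglia. KCNK18, a two-pore potassium channel (chromosome 9, 116406347 to 116419461 on the Macaca_fascicularis_5.0 build), stood at 89.7, 68.6, 115 and 72.2 CPM in ganglia and had no count in any cord library. Against a floor of 3 counts over the cord group, it was at least 4990-fold higher. HTR3B, a subunit of the 5-HT3 serotonin receptor channel (chromosome 14, 109924357 to 109968357), stood at 10.6, 6.32, 9.26 and 3.77 CPM in ganglia, again with 0 in cord, and was at least 432-fold higher. CCDC172, a coiled-coil protein gene on chromosome 9, was the other leading gene with no count in cord, at 11.1, 14.5, 12.7 and 7.26 CPM in ganglia and at least 659-fold higher. SCN11A and SCN10A code for the sodium channels Nav1.9 and Nav1.8 of pain-sensing neurons and lie side by side on chromosome 2 (93755451 to 93863607 and 93598414 to 93704360). SCN11A had 864, 805, 1188 and 795 CPM in ganglia against 0.260, 0.0489, 0 and 0.0965 in cord. Its log2 fold change was 13.24 ± 0.96, with an edgeR adjusted p of 0.00283. Here and below, the value after ± is only an approximate standard error. It is the absolute log2 fold change divided by the square root of edgeR's F statistic. SCN10A had 491, 439, 456 and 315 CPM against 0.173, 0, 0.0892 and 0, a log2 fold change of 12.73 ± 0.85. No cord library reached 1 CPM in any of these 5 genes.

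The other leading ganglion genes, chosen for being over 2-fold and without overlap, were of several kinds. HTR3A, the partner subunit of HTR3B and its neighbour on chromosome 14, stood at 1295, 1192, 1245 and 789.9 CPM against 0.238, 0.782, 0.848 and 0.145 in cord, a log2 fold change of 11.35 ± 0.62. AVIL, an actin-binding protein of sensory neurons named advillin, had 1533, 1273, 1509 and 907 CPM against 1.97, 3.96, 2.70 and 4.24, a log2 fold change of 8.69 ± 0.49. TMEM233, a small membrane protein, was among the most abundant of them, at 762, 781, 818 and 565 CPM against 0.520, 0.367, 1.16 and 4.00 in cord. The cord values of all 3 genes stayed under 5 CPM in each library. TRARG1, a protein of vesicles that carry the glucose transporter GLUT4, gave a log2 fold change of 9.94 ± 0.88, and the secreted protein FAM19A3 gave 9.85 ± 0.29. SLC10A2, known as the bile acid transporter of the ileum, gave 9.02 ± 0.92, and TRAPPC3L, a relative of a vesicle-tethering subunit, gave 8.94 ± 0.47. TRPA1, PRDM12 and POU4F3, the remaining leading genes, are described with their groups.

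Transcription factors of the neural tube, and genes of oligodendrocytes and astrocytes, led the genes of the cord. NKX2-2, a factor of oligodendrocyte and ventral progenitor identity (chromosome 10, 40768537 to 40771159), had no count in any ganglion and 25.8, 35.4, 23.04 and 25.2 CPM in cord. It was at least 1760-fold lower in ganglia, against a floor of 3 counts over the group. TMEM125, a membrane protein gene on chromosome 1 (184342115 to 184342774), was the other leading gene with no ganglion count, at 10.1, 21.6, 11.6 and 11.5 CPM in cord and at least 880-fold lower. OLIG2, the factor that specifies oligodendrocytes and motor neurons, had 1906 counts over the cord libraries and 1 over the ganglia, a ratio of 2120 after scaling (95% counting interval 380 to 83800). PPP1R17, a phosphatase inhibitor known from cerebellar Purkinje cells, had 3057 and 3 counts, a ratio of 1130 (388 to 5500). These 4 genes were at or near the floor in all ganglia. Lack of overlap with cord was part of the rule that chose them.

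The other leading cord genes were chosen by the same rule, over 2-fold and without overlap. MLC1, a membrane protein of astrocyte endfeet, stood at 0.176, 0.325, 0.204 and 0.446 CPM in ganglia and 392, 466, 500.2 and 464 CPM in cord, a log2 fold change of -10.67 ± 0.34. DAO, the enzyme that degrades D-amino acids and mainly D-serine, had 0, 0, 0.122 and 0 CPM in ganglia and 39.8, 93.2, 41.6 and 51.9 CPM in cord. CNDP1, a secreted carnosine dipeptidase made by oligodendrocytes, gave -9.89 ± 0.47 and DSCAML1, a cell adhesion molecule, gave -8.97 ± 0.81. SALL3, a zinc finger factor, gave -8.37 ± 0.99 and RFX4, a factor of neural tube patterning, gave -8.16 ± 0.37. MOG, OPALIN, SLC1A2, HAPLN2 and ERMN complete these 15 genes and are described with myelin, astrocytes and matrix.

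**Figure D2:**
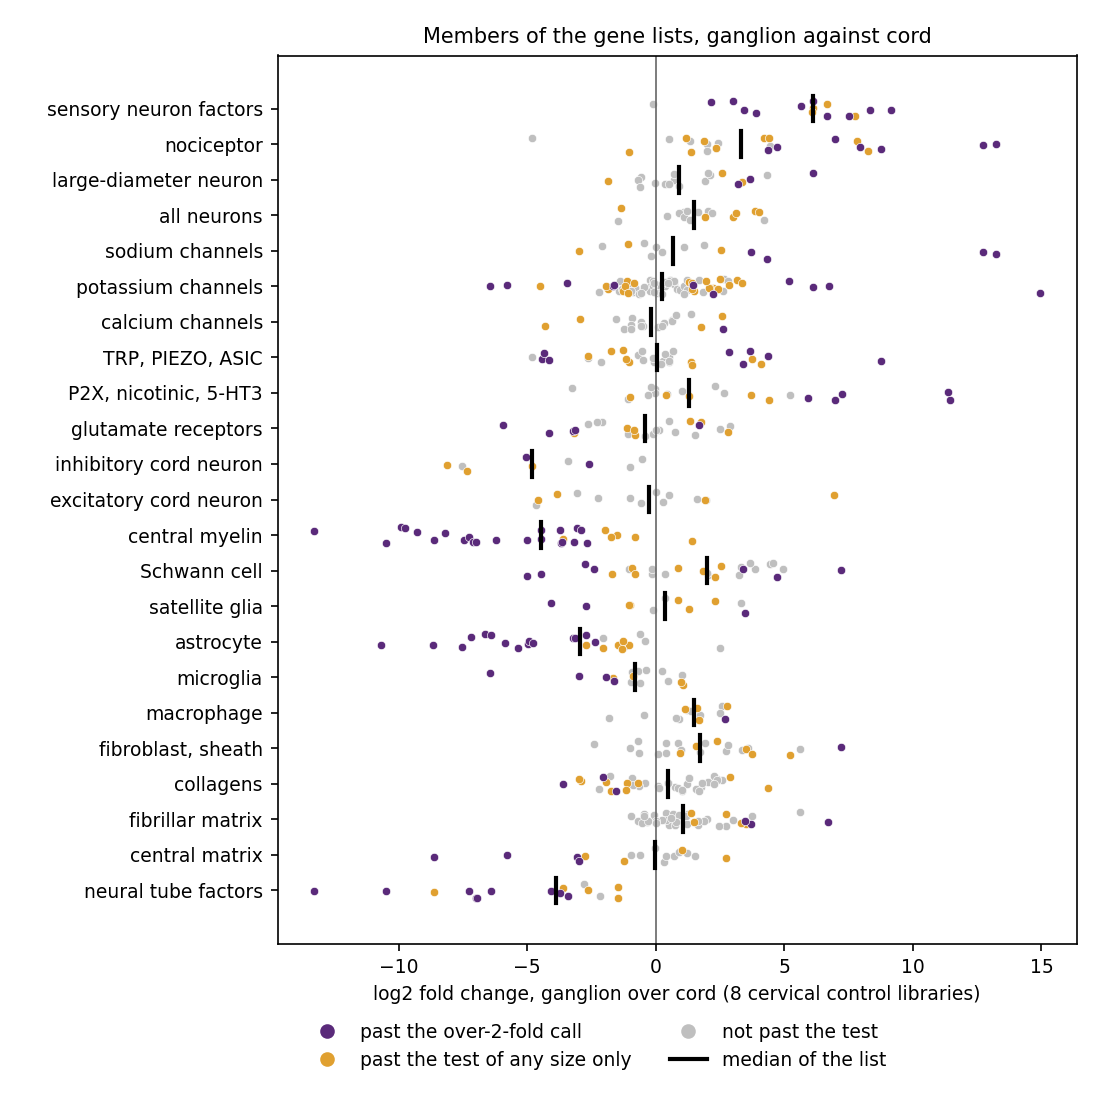
Log2 fold change of ganglion over cord for the tested members of 23 gene lists, 1 point per gene, with the median of each list as a black bar. Purple points passed the test for over 2-fold, yellow points passed only the test of any size and grey points passed neither; the value drawn for a gene with no count in one tissue depends on the prior count and is no measured fold. The sensory factors lie to the right, the central myelin, astrocyte and neural tube lists lie to the left, and the channel lists spread to both sides.

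Transcription factors of sensory neurons were almost all higher in ganglia. Of 15 tested factors, 14 were higher and 0 lower, 10 of them over 2-fold, with a median log2 fold change of 6.12; without animal 1 the same counts were 14, 0 and 10, with a median of 5.08. ISL1, a factor that sensory and motor neurons share, stood at 58.2, 59.6, 68.5 and 34.6 CPM in ganglia against 0.130, 0.464, 0.491 and 1.86 in cord, a log2 fold change of 6.66 ± 0.89. Its relative ISL2 had 48.2, 41.9, 49.96 and 23.8 CPM against 0.173, 0.0489, 0.0446 and 1.71, a log2 fold change of 7.51 ± 1.34. PRDM12, the factor required in humans for pain-sensing neurons, had 17.8, 17.9, 14.3 and 8.74 CPM against 0.0433, 0, 0 and 0.0482. For these 3 genes the lowest ganglion library lay over 8 CPM and the highest cord library under 2 CPM. POU4F3, one of the Brn3 factors, had 1219 counts over the ganglia and 3 over the cord, a ratio of 365 (95% counting interval 125 to 1770). DRGX, which guides the wiring of pain-sensing neurons in mice, had 36.3, 35.2, 39.6 and 21.2 CPM in ganglia against 0, 0.367, 4.57 and 0.314 in cord. Its cord values ran from no count to 4.57 CPM in cord 3, and it was higher but not over 2-fold (6.09 ± 1.32, edgeR adjusted p for over 2-fold 0.0736). ETV1, a factor of proprioceptors in mice, was nearer between the tissues, at 175, 160.3, 125 and 92.3 CPM against 35.2, 25.5, 30.9 and 30.1 (2.15 ± 0.20). EYA2 was the member that passed neither test, at -0.12 ± 0.43. NEUROD1 and HMX1 were under the filter on low counts, and 3 listed factors were not analysed here.

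Genes of nociceptors, the neurons that sense damage, were mostly higher. Of 24 tested members, 15 were higher and 1 lower, with 7 and 0 over 2-fold and a median of 3.33. Without animal 1, 15 were higher and 2 lower. Without cord 1 and the block the counts were 17 and 2 (13 and 1 over 2-fold). P2RX3, an ATP-gated channel of sensory endings, stood at 223, 219.6, 138 and 113 CPM against 1.17, 1.52, 1.65 and 1.06 (log2 fold change 6.97 ± 0.28). It was over 2-fold with and without animal 1. The peptide CALCA, which gives calcitonin gene-related peptide, had 226, 292, 112 and 99.9 CPM in ganglia against 0.260, 0.196, 0.312 and 9.67 in cord. Cord 4, the library with the most CHAT, lay far above the other 3 but still under every ganglion, and CALCA was higher (8.25 ± 1.69, edgeR adjusted p 0.0224) without passing for over 2-fold. CALCB, its close paralogue, showed the same order, at 663, 669, 489.7 and 238 CPM against 0.476, 0.782, 3.46 and 41.5; without animal 1 it did not pass (6.59). Short reads of the 2 genes can be shared, and how the counting treated them was not tested. TAC1, the precursor of substance P, had 578, 513, 312 and 158 CPM against 0.563, 18.6, 81.6 and 14.97, with no overlap, yet did not pass (4.46 ± 1.51, edgeR adjusted p 0.0759). It passed without animal 1 (3.34).

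Among the other nociceptor genes, GFRA2, a co-receptor for neurturin, was higher (2.35 ± 0.42). TRPM3, a heat-sensing channel, was the member that was lower (-1.03 ± 0.22), at 9.43, 11.7, 12.6 and 11.7 CPM in ganglia and 13.7, 21.1, 25.96 and 38.1 CPM in cord. The cold sensor TRPM8 had 95.4, 115, 39.6 and 36.8 CPM in ganglia and 23.5, 56.8, 56.1 and 46.4 CPM in cord, and the libraries overlapped (0.54 ± 0.50, edgeR adjusted p 0.428). OPRM1, the mu opioid receptor, stood at or under 1.45 CPM in every library and did not pass (2.43 ± 1.30). SST, somatostatin, and ADCYAP1, the precursor of PACAP, gave 1.34 ± 1.49 and 1.98 ± 1.52 and did not pass either; both had under 0.2 CPM in cord 1.

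Genes of large-diameter neurons, the touch and position sensors, passed on both sides. Of 19 tested members, 5 were higher, 3 of them over 2-fold, and 1 was lower, with a median of 0.91 (0.45 without animal 1, where 5 were higher and 0 lower). PIEZO2, the touch receptor channel, had 248, 201, 262 and 157 CPM in ganglia against 26.4, 13.8, 17.9 and 12.03 in cord, a log2 fold change of 3.67 ± 0.17. KCNS1, a modifier subunit of voltage-gated potassium channels, had 150.4, 183, 157 and 47.8 CPM against 1.34, 1.56, 1.65 and 3.04 (6.10 ± 0.69). RET, the signalling receptor of the GDNF family, had 786, 725, 742 and 445 CPM against 53.2, 67.2, 79.5 and 92.0 (3.21 ± 0.32). All 3 passed over 2-fold, and ganglion 4 was the lowest ganglion in each. NEFH, the heavy neurofilament, had 4624, 4896, 2546 and 1274 CPM in ganglia and 3.96, 387, 90.8 and 1243 CPM in cord. Its lowest ganglion, number 4, lay just above cord 4, and the gene did not pass (4.33 ± 1.97, edgeR adjusted p 0.145; 2.96 without animal 1). PVALB, a calcium buffer of proprioceptors and of cord interneurons, overlapped between the tissues, at 128, 136, 137 and 51.4 CPM and 8.81, 65.3, 10.95 and 142 CPM (1.92 ± 1.17).

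Receptors for neurotrophins and GDNF ligands differed by member. Of 14 tested, 6 were higher (5 over 2-fold) and 3 lower (2 over 2-fold), with a median of 1.15; without animal 1 the counts were 7 and 2. NGFR, the p75 receptor that sensory neurons, Schwann cells and perineurium share, had 682, 724, 551 and 483 CPM in ganglia and 35.1, 2.59, 2.19 and 2.12 CPM in cord (7.19 ± 0.96). Cord 1 carried most of the cord signal, and without animal 1 the value was 7.94. NTRK2, the receptor for brain-derived neurotrophic factor, went the other way, at 258, 171, 215 and 215 CPM against 667, 975, 1529 and 331 (-1.84 ± 0.45), and did not pass without animal 1 (-2.05). SORT1, a sorting receptor that binds pro-neurotrophins, was lower over 2-fold (-2.09 ± 0.19), as was GFRA4 (-3.69 ± 0.51), the co-receptor for persephin, which stayed under 1.2 CPM in every library. NTRK3, the receptor for NT-3, did not pass (-0.56 ± 0.18).

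Sodium channels passed in both directions. Of 14 tested, 5 were higher, 4 of them over 2-fold, and 2 were lower, with a median of 0.67, beside 16% and 18.9% of all genes. Without animal 1, of 15 tested, 5 and 4 (5 and 2 over 2-fold) passed, with a median of -0.47. Without cord 1 and the block the counts were 6 and 6. Besides SCN10A and SCN11A, SCN9A, the Nav1.7 channel whose loss abolishes pain in humans, had 331, 343, 346 and 272 CPM in ganglia against 14.1, 8.21, 22.7 and 23.97 in cord (4.34 ± 0.39). Per length, SCN11A stood at 385 TPM (transcript counts scaled for length and depth), SCN10A at 163 and SCN9A at 73.6 TPM in ganglia. SCN7A, a sodium-sensing channel that Schwann cells also express, was higher (2.54 ± 0.48). SCN3A, the Nav1.3 channel, was lower (-2.97 ± 0.61), at 3.48, 3.17, 2.69 and 2.41 CPM against 7.21, 21.95, 49.7 and 30.8, as was the leak channel NALCN (-1.08 ± 0.14).

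Potassium channels passed in both directions. Of 77 tested subunits, 19 were higher and 13 lower, with 6 and 5 over 2-fold and a median of 0.25; without animal 1 the counts were 17 and 14, with 6 and 5 over 2-fold. Among all genes 16% were higher and 18.9% lower. Without cord 1 and the block, 24 and 20 of 78 passed (13 and 10 over 2-fold), beside 25.5% and 24.6% of all genes. KCNK18 and KCNS1 were among those over 2-fold. KCNAB1 and KCNIP4, auxiliary subunits of Kv1 and Kv4 channels, gave 2.86 ± 0.62 and 2.51 ± 0.53, and KCNN2, a calcium-activated channel, gave 1.45 ± 0.11. Some inward rectifiers were among the subunits that were lower. Others did not pass, and KCNJ4, named after its values were seen, was higher. KCNJ16, which in astrocytes and kidney pairs with other rectifier subunits, had 0.132, 0.122, 0.244 and 0.446 CPM in ganglia against 3.49, 21.9, 20.1 and 54.7 in cord (-6.46 ± 0.52). KCNJ2, the Kir2.1 channel, had 0.551, 0.671, 0.427 and 1.22 CPM against 28.1, 46.02, 43.99 and 31.5 (-5.76 ± 0.41). KCNMB4, the neuronal beta subunit of BK channels, was lower over 2-fold too (-1.64 ± 0.12).

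Calcium channels passed in both directions as well. Of 20 calcium channel subunits, 3 were higher and 2 lower, with a median of -0.20. Without animal 1, of 21 tested, 3 and 5 (1 and 2 over 2-fold) passed, with a median of -0.84, and without cord 1 and the block 5 and 9. CACNA1H, the T-type channel Cav3.2, had 90.5, 80.6, 74.4 and 47.6 CPM in ganglia against 7.49, 6.06, 29.98 and 14.1 in cord (2.60 ± 0.55). CACNA1I, the related Cav3.3, had 0.419, 0.447, 0.407 and 0.122 CPM against 1.36, 10.7, 9.37 and 10.1 (-4.29 ± 0.86), so these T-type genes were higher in opposite tissues. CACNB3, an auxiliary beta subunit, was the only member over 2-fold with all animals (2.61 ± 0.20). CACNA2D1, the binding site of gabapentin, was higher (1.77 ± 0.37) and CACNA1E, the R-type channel, lower (-2.95 ± 0.72). Of 4 hyperpolarization-activated pacemaker channels, 1 was higher, over 2-fold, and 0 lower, and without animal 1 the counts were 1 and 0, with 0 over 2-fold.

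Of 32 tested TRP, PIEZO, ASIC and TMEM63 channels, which respond to temperature, irritants, touch or acid, 9 were higher and 8 lower, with 5 and 3 over 2-fold. Without animal 1 the counts were 8 and 8 (6 and 4 over 2-fold), and without cord 1 and the block 9 and 12 (7 and 7 over 2-fold). TRPA1, the irritant receptor (chromosome 8, 73237164 to 73306937), had 153, 183, 131 and 102 CPM in ganglia against 0.130, 0.587, 0.714 and 0.0965 in cord (8.78 ± 0.63). TRPV1, the capsaicin and heat receptor, had 140.1, 157, 84.5 and 36.4 CPM against 7.47, 3.67, 5.22 and 2.68 (4.35 ± 0.34). Ganglion 4 was lowest in both, and neither overlapped. TRPV2 (3.73 ± 0.68) and the osmosensitive TMEM63C (4.10 ± 0.77) were higher. PIEZO1, the mechanosensor of vessels, was lower (-1.29 ± 0.36), unlike PIEZO2, and did not pass without animal 1 (-1.10). TRPM6, a magnesium channel, had 1.59, 1.20, 0.753 and 2.46 CPM in ganglia against 26.3, 30.2, 23.9 and 19.8 in cord (-4.17 ± 0.41), and ASIC4, an acid-sensing channel relative, was also lower over 2-fold (-4.33 ± 0.56).

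**Figure D3:**
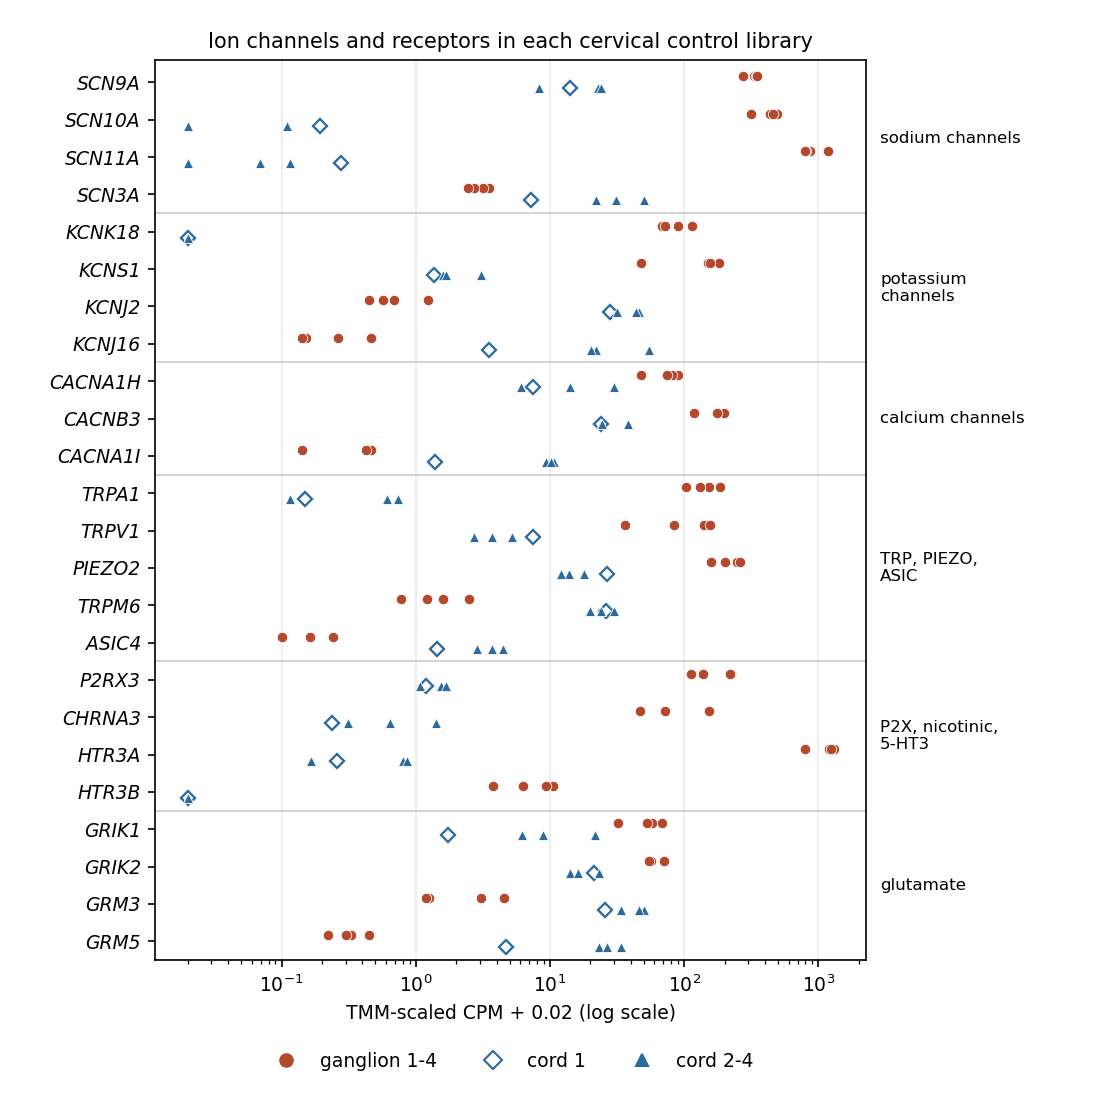
Level of 24 channel and receptor genes in each of the 8 libraries, as CPM plus 0.02 on a log axis, with symbols as for the defining genes. KCNK18 and HTR3B have no count in cord, SCN10A and SCN11A have almost none, and KCNJ16, CACNA1I and GRM5 lie lower in ganglia with cord 1 the lowest cord library.

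Ligand-gated channels for ATP, acetylcholine and serotonin were higher more often than lower. Of 21 tested, 9 were higher (5 over 2-fold) and 1 lower, with a median of 1.31. The counts without animal 1 were 9 and 0, and those without cord 1 and the block 11 and 3. CHRNA3, the main nicotinic subunit of peripheral ganglia, had 71.7, 46.9, 152 and 71.9 CPM against 0.216, 0.293, 0.625 and 1.399 (7.26 ± 0.59), with ganglion 3 the highest. CHRNA9, known from hair cells of the ear, had 64.4, 63.1, 45.4 and 27.9 CPM against 0.909, 0.440, 1.12 and 0.748 (5.93 ± 0.43). P2RX7, an ATP receptor of microglia and macrophages, was the member that was lower (-1.01 ± 0.26), and it did not pass without animal 1 (-0.81).

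Receptors for glutamate passed in both directions. Of 25 tested, 4 were higher and 8 lower, with 1 and 4 over 2-fold and a median of -0.42, beside 16% and 18.9% of all genes. Without animal 1, of 26 tested, 5 and 12 (3 and 6 over 2-fold) passed, with a median of -0.93. Without cord 1 and the block the counts were 6 and 13 (3 and 10 over 2-fold). Among the kainate receptors GRIK1 (2.83 ± 0.63), GRIK2 (1.69 ± 0.14) and GRIK3 (1.75 ± 0.35) were higher, and the other tested subunits did not pass. GRM5, a metabotropic receptor of dorsal horn neurons, had 0.308, 0.203, 0.427 and 0.284 CPM in ganglia against 4.65, 23.3, 26.7 and 33.5 in cord (-5.93 ± 0.64). GRM3, which astrocytes and neurons share, had 3.04, 4.49, 1.24 and 1.18 CPM against 25.8, 49.8, 46.1 and 33.5 (-4.13 ± 0.47). GABA and glycine receptors gave 3 higher and 2 lower of 18 with all animals, 0 of them over 2-fold. Without animal 1, 20 were tested, and 1 was higher and 7 lower, with 6 lower over 2-fold. Any member that joined only through cord had its direction set by the filter, so the rise in lower members is no added support. GABRA2, the receptor subunit most clearly on the ganglion side, had 55.5, 50.2, 63.9 and 47.3 CPM against 1.88, 4.50, 7.03 and 16.7 (3.26 ± 0.61). GABRB1 was lower (-2.71 ± 0.54).

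Genes that all neurons use passed on both sides. Of 18 pan-neuronal genes, 5 were higher and 1 lower, 0 of them over 2-fold, with a median of 1.49, and of 0.80 without animal 1, where the counts were 6 and 2. Without cord 1 and the block, 10 were higher (6 over 2-fold) and 2 lower, beside 25.5% and 24.6% of all genes. UCHL1, a deubiquitinating enzyme, was among the most abundant transcripts of the ganglion at 5053 TPM, and had 3212, 2837, 2774 and 1594 CPM against 123, 346, 274 and 898 in cord (3.02 ± 0.74). TUBB3, the neuronal tubulin, had 2261, 2423, 1651 and 909 CPM against 19.02, 138, 119 and 340.0 (4.02 ± 1.04), and THY1, a surface glycoprotein, gave 3.11 ± 0.82. ELAVL3, an RNA-binding protein, was lower (-1.34 ± 0.23). SNAP25 had 1972, 2040.0, 1661 and 783 CPM in ganglia and 16.1, 1493, 905.6 and 2327 CPM in cord, and its log2 fold change of 1.03 ± 1.53 became -0.09 without animal 1. Of 22 genes of transmitter release, 3 were higher and 0 lower (median 1.38, and 0.75 without animal 1), among them STX1A (1.68 ± 0.22) and SYT1 (1.92 ± 0.31). The counts of that list were 3 and 1 without animal 1, and 9 and 1 without cord 1 and the block. Of 8 intermediate filament genes, SYNM was higher (0.93 ± 0.16) and GFAP lower, while the neurofilaments NEFL (3.86 ± 1.69) and NEFM (3.77 ± 1.56) did not pass. Without animal 1, 3 and 1 of these passed, and without cord 1 and the block 6 and 1.

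Genes of cord neurons were lower in ganglia where they mark inhibitory cells. Of 9 tested inhibitory genes, 0 were higher and 5 lower (2 over 2-fold), with a median of -4.79. The list summed to 321 CPM in cord 1, 622 to 859 CPM in cord 2 to 4 and 13.6 to 33.1 CPM in ganglia. With all animals, 5 members with almost no ganglion counts were under the filter. Without animal 1, 13 were tested and 11 were lower, all of them over 2-fold. Members with almost no ganglion counts can pass the filter only through cord. Their direction was thus set by the filter, and the rise in the count is no added support. GAD1, the enzyme that makes GABA, had 0.308, 0.0203, 0.0204 and 0.507 CPM in ganglia and 1.17, 105, 94.7 and 115 CPM in cord (-8.11 ± 2.09; -9.55 without animal 1). SLC6A5, the glycine transporter of inhibitory terminals, had 0.661, 0.163, 0.529 and 0.446 CPM against 2.08, 219, 56.1 and 244 (-7.34 ± 1.95). In both genes cord 1 lay nearer to the ganglia than to the other cord libraries.

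Excitatory genes of the cord passed on both sides. Of 14 excitatory genes, 2 were higher and 2 lower, 0 of them over 2-fold, with a median of -0.27. Without animal 1, of 15 tested, 2 and 5 passed, 1 lower over 2-fold, with a median of -1.09. Without cord 1 and the block the counts were 2 and 6. SLC17A7, the vesicular glutamate transporter VGLUT1, had 223, 222, 188 and 70.7 CPM in ganglia against 0.303, 7.43, 0.178 and 3.14 in cord (6.93 ± 1.44). SLC17A6, the VGLUT2 transporter that dorsal horn neurons use as well, had 197, 171, 167 and 88.2 CPM against 0.346, 70.1, 83.0 and 144 and did not pass (1.61 ± 1.65). The lower genes were NTS, neurotensin (-4.56 ± 1.12), and NMUR2, a neuromedin receptor (-3.85 ± 0.95), which did not pass without animal 1 (-4.10). Of 11 motor neuron genes, 0 were higher and SLC10A4, a vesicle transporter of cholinergic neurons, was lower over 2-fold, at 0.308, 0.528, 0.488 and 0.690 CPM against 4.76, 8.75, 8.03 and 51.2 (-4.56 ± 0.52). Cord 4 was its highest library. The counts of the list were 0 and 1 without animal 1, and 2 and 2 without cord 1 and the block. CHAT, at 1.34, 1.93, 1.28 and 0.203 CPM in ganglia and 0.173, 0.367, 0.402 and 20.7 CPM in cord, did not pass (1.13 ± 1.86 with the animal block and -2.18 without it).

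Nearly all genes of central myelin and of its cells were lower. Of 28 tested genes of oligodendrocytes, 27 were lower, 22 of them over 2-fold, and 1 was higher, with a median of -4.46. Without animal 1 the counts were 26 lower and 1 higher, with a median of -4.63. MBP, the myelin basic protein of both central and peripheral myelin, had 1352, 1476, 1425 and 2138 CPM in ganglia and 35360.0, 44140.0, 30990.0 and 27870.0 CPM in cord (-4.44 ± 0.40). It was the most abundant transcript of the cord, at 27150.0 TPM against 1319 TPM in ganglia. It thus remained well detected in ganglia, unlike MOG, whose log2 fold change was -9.74 ± 0.39.

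The other genes of the list spanned the same range. MAG, an adhesion protein of myelin next to the axon, had 12.6, 13.3, 21.5 and 25.7 CPM in ganglia and 590.4, 685, 547 and 451 CPM in cord (-5.01 ± 0.37). MOBP, a protein of the central myelin dense line, gave -7.11 ± 0.27, ERMN, an actin-binding oligodendrocyte protein, gave -8.19 ± 0.34, and OPALIN, a membrane protein of oligodendrocytes, gave -9.27 ± 0.34. NKX6-2, a factor of myelinating oligodendrocytes, gave -7.25 ± 0.78, and KLK6, a protease of myelin, gave -3.68 ± 0.18. TSPAN2, a tetraspanin, was the member higher in ganglia, at 39.9, 48.99, 32.6 and 31.1 CPM against 12.5, 14.8, 14.1 and 14.7 (1.42 ± 0.16). Of 14 genes of oligodendrocyte precursors, 9 were lower (6 over 2-fold) and 1 was higher, with a median of -1.71; without animal 1, 10 were lower and 0 higher. GPR17, a receptor of maturing precursors, was lower (-1.70 ± 0.29), and LHFPL3 was the higher member (0.59 ± 0.16), which did not pass without animal 1 (0.55).

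Schwann cell genes passed on both sides. Of 27 tested, 7 were higher (3 over 2-fold) and 7 lower, with a median of 1.99. Without animal 1, 12 were higher (9 over 2-fold) and 6 lower, with a median of 2.68. Without cord 1 and the block the counts were 16 and 7. PRX had 486, 534, 427 and 822 CPM in ganglia and 1539, 4.67, 116 and 6.99 CPM in cord, and did not pass (3.85 ± 2.33, edgeR adjusted p 0.243). PMP22, a peripheral myelin protein made in other tissues too, had 1696, 1674, 1555 and 2298 CPM and 3256, 228, 384 and 188 CPM, a log2 fold change of 2.04 ± 0.90 that became 2.80 and passed over 2-fold without animal 1. In both genes cord 1 was the highest of the 8 libraries, and cord 2 to 4 lay below every ganglion. CDH19, a cadherin of the Schwann lineage, was higher with all animals (2.29 ± 0.39), as was the adhesion molecule L1CAM (3.41 ± 0.59).

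The 7 members of that list that were lower include MBP, MAG, S100B, CMTM5, CRYAB and SOX10, genes which central glia also express. S100B, a calcium-binding protein of Schwann cells, astrocytes and oligodendrocytes, had 500.1, 470.0, 392 and 395 CPM in ganglia and 2776, 2209, 2542 and 1746 CPM in cord (-2.39 ± 0.20). SOX10, the factor of both myelinating lineages, had 90.4, 82.5, 108 and 87.2 CPM against 211, 169.5, 147 and 126 (-0.81 ± 0.18) and did not pass without animal 1 (-0.71). PMP2, a lipid carrier of peripheral myelin, did not pass (-0.13 ± 0.49), and cord 1 was again its highest library at 466 CPM.

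**Figure D4:**
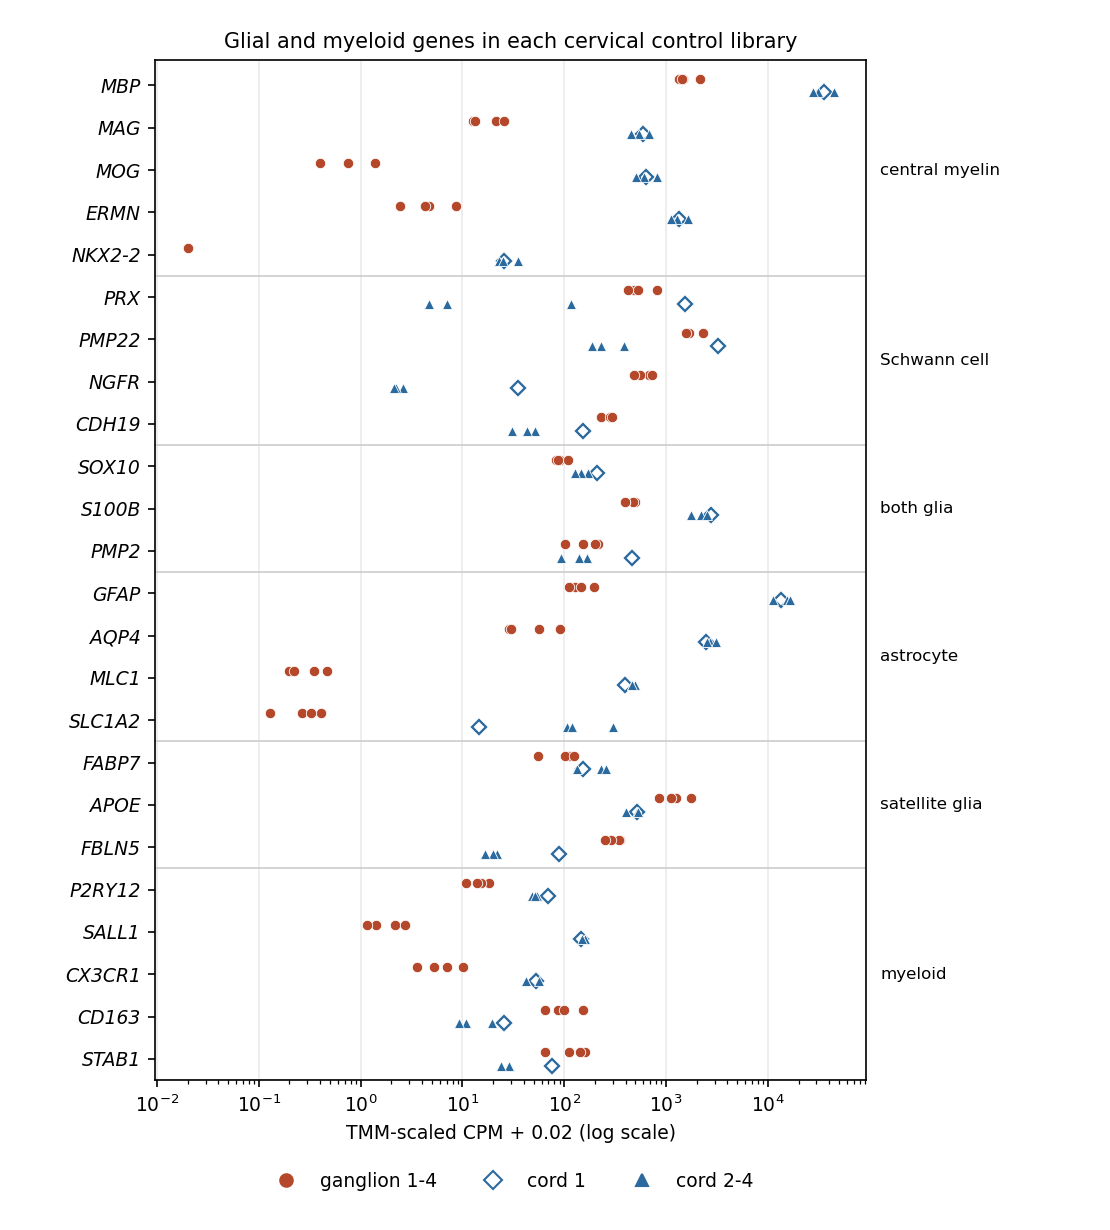
Level of 24 glial and myeloid genes in each of the 8 libraries, as CPM plus 0.02 on a log axis, with symbols as for the defining genes. The central myelin and astrocyte genes lie apart in all 8 libraries, cord 1 lies above the ganglia for PRX and PMP22, and CD163 and P2RY12 lie on opposite sides.

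Astrocyte genes were lower wherever they passed with and without animal 1. Of 26 tested, 0 were higher and 21 lower, 15 of them over 2-fold, with a median of -2.93. The numbers lower without animal 1 were 22 and 18. Without cord 1 and the block, 1 was higher, over 2-fold, and 23 were lower, 19 of them over 2-fold. GFAP, the astrocyte filament, had 194, 128, 147 and 112 CPM in ganglia and 13610.0, 15360.0, 16420.0 and 11130.0 CPM in cord (-6.62 ± 0.35). AQP4, the water channel of astrocyte endfeet, had 90.2, 56.7, 28.96 and 29.9 CPM against 2451, 2679, 3126 and 2503 (-5.87 ± 0.48). SLC1A2, the main glutamate transporter of the brain, had 0.110, 0.244, 0.387 and 0.304 CPM against 14.5, 106, 119.9 and 305, with cord 1 far below the other cord libraries, and passed over 2-fold with and without animal 1 (-8.66 ± 0.56; -9.03). AGT, angiotensinogen, gave -4.96 ± 0.56. CHRDL1, a secreted BMP antagonist, had 110.1, 118, 106 and 564 CPM in ganglia and 237, 16.99, 22.6 and 8.22 CPM in cord, and was the only tested member with a positive value, which did not pass (2.504 ± 1.35).

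Satellite glia share many genes with astrocytes, and their list passed on both sides. Of 11 tested, 4 were higher and 4 lower, with 1 and 2 over 2-fold and a median of 0.36; without animal 1 the counts were 5 and 4 (3 and 2 over 2-fold). FBLN5, an elastic fibre protein, had 354, 347, 285 and 253 CPM in ganglia and 89.1, 21.7, 19.9 and 16.6 CPM in cord (3.47 ± 0.44). APOE, the lipid carrier, had 1750.0, 1248, 1123 and 854 CPM against 516, 522, 530.4 and 405 (1.29 ± 0.20). FABP7, a fatty acid carrier used as a satellite glia marker in mice, had 110.1, 102, 125 and 54.7 CPM against 151, 230.0, 256 and 133 and was lower (-0.99 ± 0.18). GLUL, the glutamine synthetase of both glia, was lower (-1.05 ± 0.18), and so were the glutamate transporter SLC1A3 (-2.71 ± 0.43) and SCRG1 (-4.08 ± 0.36), both over 2-fold. KCNJ10 and GJA1, which mark satellite glia in rodents, were not analysed here.

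Genes of resident myeloid cells passed on both sides. Of 16 microglia genes, 2 were higher and 6 lower (4 over 2-fold), with a median of -0.80, and 1 and 5 passed without animal 1. Of 14 genes of tissue macrophages, 5 were higher (1 over 2-fold) and 0 lower, with a median of 1.49. Without animal 1, 4 of them were higher and 0 lower, and without cord 1 and the block 11 and 0 of 15. P2RY12, a purine receptor of microglia, had 18.3, 10.9, 15.2 and 13.8 CPM in ganglia and 69.1, 53.6, 48.1 and 51.1 CPM in cord (-1.94 ± 0.14). SALL1, the factor of microglial identity in mice, had 1.41, 1.14, 2.16 and 2.72 CPM against 145, 159.6, 159.7 and 148 (-6.44 ± 0.31), and CX3CR1, the fractalkine receptor, gave -2.98 ± 0.25. These 3 genes passed over 2-fold with and without animal 1. CD163, a haemoglobin scavenger receptor of macrophages, had 151, 87.8, 65.2 and 100.4 CPM against 25.7, 10.9, 19.4 and 9.14 (2.70 ± 0.32). STAB1 (1.69 ± 0.31) and the mannose receptor MRC1 (1.12 ± 0.25) were higher as well, MRC1 not without animal 1 (1.05). CSF1R, the growth factor receptor, did not pass (-0.70 ± 0.20), and C1QB, a complement gene, was higher (1.07 ± 0.29) but not without animal 1 (1.20).

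Lymphocyte genes had low sums in both tissues. Of 18 tested, 3 were higher and 1 lower, beside 16% and 18.9% of all genes. The list summed to 73.6 to 159 CPM in ganglia and 65.1 to 88.4 CPM in cord. The counts without animal 1 were 4 and 1, and those without cord 1 and the block 9 and 1, beside 25.5% and 24.6% of all genes. CD3G, a subunit of the T cell receptor complex, had 2.23, 3.23, 1.97 and 2.21 CPM against 0.325, 0.782, 0.223 and 0.314 (2.67 ± 0.32). GZMB, a protease of cytotoxic cells, was higher over 2-fold (3.30 ± 0.49). The gene named TRAC was lower over 2-fold, at 2.03, 1.63, 3.24 and 4.12 CPM against 7.47, 14.2, 11.2 and 22.5 (-2.30 ± 0.29), the opposite of CD3G.

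Vessel genes passed in both directions, beside 16% and 18.9% of all genes. Of 21 endothelial and mural genes, 2 were higher and 4 lower, with a median of -0.19, and of 15 genes of barrier endothelium 2 were higher and 6 lower, with a median of -0.27. Without animal 1 the counts were 3 and 4 for the first list and 2 and 6 of 16 for the second. ACKR1, a chemokine-binding receptor of venules, had 44.8, 31.7, 39.4 and 30.2 CPM in ganglia and 5.30, 7.70, 5.06 and 7.84 CPM in cord (2.505 ± 0.27). RGS5, a pericyte gene, had 33.2, 37.2, 33.7 and 35.04 CPM against 125, 124, 114 and 158 (-1.90 ± 0.13). CLDN5, the tight junction claudin of brain endothelium, had 1.04, 1.81, 2.99 and 4.16 CPM against 7.60, 7.19, 7.72 and 10.01 (-1.86 ± 0.34). SLC38A5, an amino acid transporter of brain vessels, was lower over 2-fold (-2.60 ± 0.27), while PECAM1, a gene of all endothelium, did not pass (0.33 ± 0.42). The transporters SLC2A1 (0.04 ± 0.26) and ABCB1 (-0.15 ± 0.15) of the blood-brain barrier did not pass either. SPOCK2, listed with barrier and central matrix genes, went against both lists, at 408, 412, 336 and 191 CPM against 15.9, 59.4, 52.5 and 109.7 (2.74 ± 0.70).

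Genes of ependyma and motile cilia gave 1 higher and 7 lower of 21, with a median of -0.76, against 2 and 7 of 22 without animal 1 and 2 and 11 without cord 1 and the block. RSPH1, a radial spoke protein, had 0.683, 0.732, 0.753 and 0.467 CPM in ganglia and 2.14, 3.15, 4.42 and 14.5 CPM in cord (-2.75 ± 0.65), with cord 4 the highest. TPPP3, a tubulin-binding protein, was the higher member, at 737, 707, 598 and 421 CPM against 147, 206, 128 and 129.7 (2.01 ± 0.18).

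Fibroblast and sheath genes were higher where they passed with and without animal 1. Of 23 tested, 7 were higher (1 over 2-fold) and 0 lower, with a median of 1.72. Without animal 1, 12 were higher and 0 lower. Without cord 1 and the block the counts were 14 and 1 (12 and 0 over 2-fold). CLDN1, the claudin of the perineurium, had 112, 108, 79.5 and 449 CPM in ganglia and 26.7, 1.30, 3.19 and 2.60 CPM in cord (5.21 ± 1.15). DCN, the proteoglycan decorin, had 1272, 1371, 692 and 4661 CPM against 1132, 149, 196 and 55.9 and did not pass (2.73 ± 1.19; 3.63 without animal 1). Ganglion 4 held the most of both genes, and cord 1 lay among or near the ganglia for DCN. LUM, lumican, was higher (3.49 ± 0.94), as was ABCA8, a lipid transporter of sheath fibroblasts (1.57 ± 0.22).

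Collagens passed on both sides, and which side had more depended on animal 1 and the fit. Of 40 collagen genes, 2 were higher and 10 lower (3 over 2-fold), although the median was 0.46 and 24 had positive values. Without animal 1, 9 were higher and 11 lower, with 4 and 5 over 2-fold. Without cord 1 and the block, 19 and 11 passed, with 11 and 8 over 2-fold, so that more were then higher than lower. The summed collagen level of cord 1 was 3960.0 CPM, within the 2056 to 5609 CPM of ganglia and above the 1286 to 1681 CPM of the other cord libraries. COL28A1, a collagen of peripheral nerve, had 115, 107, 159 and 211 CPM in ganglia and 41.99, 2.37, 9.28 and 3.35 CPM in cord (4.36 ± 0.96), and COL8A1 was the other higher collagen (2.91 ± 0.68). COL1A1, of the fibrils of connective tissue, had 136, 147, 50.1 and 239 CPM against 176, 44.4, 20.4 and 8.13 and did not pass (1.75 ± 0.94). On the cord side COL9A2, known from cartilage, had 11.5, 27.6, 17.5 and 32.1 CPM against 261, 343, 208 and 214 (-3.61 ± 0.33). COL4A5, of basement membranes, had 39.7, 42, 37.9 and 45.2 CPM against 168, 182, 171 and 159 (-2.04 ± 0.12), and COL4A3, COL4A4 and COL4A6 were lower too (-1.74 ± 0.29, -1.12 ± 0.22 and -1.94 ± 0.34). COL4A1 and COL4A2, the chains of most basement membranes, had positive values that did not pass with all animals (2.03 ± 0.62 and 1.80 ± 0.56) and passed over 2-fold without animal 1 (2.60 and 2.33).

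The other matrix lists differed. Of 24 basement membrane genes, 2 were higher and 4 lower, against 12 and 5 without animal 1 and 13 and 4 without cord 1 and the block. ITGA7, a laminin receptor, was higher (1.35 ± 0.29), and the lower members were the collagen chains COL4A3 to COL4A6. Of 40 genes of fibrillar and elastic matrix, 8 were higher (3 over 2-fold) and 0 lower, with a median of 1.05, against 12 higher and 0 lower without animal 1 and 20 and 1 without cord 1 and the block. THBS1, thrombospondin, had 125, 103, 74.1 and 286 CPM in ganglia and 39.7, 7.77, 11.9 and 7.02 CPM in cord (3.31 ± 0.71), and FBLN2 gave 2.74 ± 0.69. Of 17 genes of the matrix of the central nervous system, 2 were higher and 6 lower (4 over 2-fold), against 2 and 8 of 18 without animal 1. TNR, the tenascin of perineuronal nets, had 1.39, 1.24, 1.57 and 1.16 CPM against 67.3, 83.7, 75.2 and 70.9 (-5.80 ± 0.16). HAPLN2, a link protein at central nodes, had 0.947, 0.630, 0.509 and 0.528 CPM against 254, 291, 221 and 249.6 (-8.63 ± 0.24). NCAN, the proteoglycan neurocan, was lower (-2.75 ± 0.49), and VCAN, versican, was lower over 2-fold (-3.08 ± 0.46).

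Few genes of the node of Ranvier passed, beside 16% of all genes higher and 18.9% lower. Of 20, EPB41L3, a scaffold beside the node, was higher (1.73 ± 0.46) but not without animal 1 (1.34), and NFASC, neurofascin, and the channel KCNK4 were lower (-0.99 ± 0.15 and -1.87 ± 0.32). Without animal 1 the counts were 0 and 2, and without cord 1 and the block 4 and 4. Of 12 tested gap junction genes, 1 was higher and 3 lower, against 2 and 2 without animal 1 and 3 and 3 without cord 1 and the block. GJB6, connexin 30 of astrocytes, gave -6.42 ± 0.66. PANX1, a channel of the related pannexin family, was the higher gene (0.86 ± 0.18) and did not pass without animal 1 (0.77).

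Genes that pattern the body axis and the neural tube were mostly lower where they passed. Of 23 tested HOX genes, 6 were lower (1 over 2-fold) and 1 was higher, with a median of -1.01 and 12 more under the filter, and without animal 1, 6 were lower and 1 higher. HOXC8 had 2.11, 1.91, 0.0407 and 2.68 CPM in ganglia and 13.4, 71.8, 1.56 and 80.3 CPM in cord (-4.41 ± 0.57). Animal 3 had the lowest HOXC8 in both tissues, and animals 2 and 4 the highest in cord. HOXD1, which in mice is switched on in nociceptors, was the higher gene, at 22.6, 22.5, 23.95 and 11.8 CPM against 3.49, 4.28, 4.31 and 3.59 (2.32 ± 0.21). Of 16 factors of the neural tube, 0 were higher and 14 lower, 9 of them over 2-fold, with a median of -3.89; without animal 1, 12 were lower and 0 higher. PAX6, a factor of ventricular cells and some interneurons, had 5.77, 5.91, 6.96 and 3.71 CPM against 49.9, 57.8, 71.8 and 57.4 (-3.43 ± 0.19). SOX2, a factor that satellite glia and Schwann cells keep as well, differed less (-1.47 ± 0.18). Of 11 factors of the neural crest, TFAP2A was higher over 2-fold (2.97 ± 0.46), and SOX10 and MSX1 were lower (-0.81 ± 0.18 and -3.13 ± 0.38). Without animal 1, 4 of these factors were higher (2 over 2-fold) and 1 lower, and without cord 1 and the block 5 and 2.

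Markers of tissue beside the ganglion were also read. Of 5 tested genes of autonomic neurons, 2 were higher, namely CHRNA3 and SLC18A2, a monoamine vesicle transporter (1.69 ± 0.46), which did not pass without animal 1 (1.30), where 2 and 1 of 6 passed. Of 14 muscle genes, 5 were higher, and 5 without animal 1, yet the list summed to only 30.7 to 58.2 CPM in ganglia and 21.3 to 26.2 CPM in cord, and CKM, muscle creatine kinase, reached 2.17 CPM at most. Of 9 fat cell genes, 3 were higher and 1 lower, against 3 and 1 of 10 without animal 1. ADIPOQ, adiponectin, had 0.463, 2.07, 2.28 and 30.2 CPM in ganglia, highest in ganglion 4, the library that was also highest in fibroblast genes, and 0.0216, 0, 0 and 0.145 CPM in cord. Of 4 tested red cell genes 1 was higher, against 4 of 6 without animal 1. Of 12 meningeal genes 3 were lower and 0 higher, with a median of -0.28, and without animal 1, 2 were higher (1 over 2-fold) and 1 lower, with a median of 0.32. That list summed to 3663 CPM in cord 1 and 1049 to 1931 CPM in cord 2 to 4. Of 18 genes of cholesterol synthesis 8 were lower and 1 higher, 0 of them over 2-fold, against 6 lower and 1 higher without animal 1. The part of muscle, fat and blood RNA in the other values was not tested.

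The same contrast was read in other libraries. In lumbar controls, from the same 4 animals, 1334 genes were higher (9.35%) and 1379 lower (9.66%), with 108 (0.757%) and 72 (0.505%) over 2-fold. One lumbar cord library, that of animal 1, had 0.243 CPM of MOG against 311 to 405 CPM in the other 3, and without that animal 2398 were higher (16.6%) and 2767 lower (19.2%), with 448 (3.10%) and 783 (5.42%) over 2-fold. Of the cervical genes higher over 2-fold, 361 were tested in lumbar libraries without animal 1, and all 361 had the same sign there, 253 of them over 2-fold. Of the lower ones, 676 of 677 had the same sign and 385 were over 2-fold. The exception was SLC6A20, a proline transporter, at -3.77 in cervical and 0.66 in lumbar libraries, named after its values were seen. The share of all genes with the same sign was 86.5% without animal 1. With all 4 animals, 360 of 360 higher and 645 of 645 lower genes kept their sign, against 85.9% of all genes. Only 93 and 59 of them were over 2-fold there. All genes include those with differences near 0, while the genes over 2-fold were chosen for large ones. Of the dosed cervical pairs, 3 share an animal and those numbered 3 come from different animals. In these libraries, fitted without a block, 2085 genes were higher (14.6%) and 2156 lower (15%), with 674 (4.70%) and 804 (5.61%) over 2-fold. With animal as a random block limma voom gave 3504 higher and 3701 lower. In the edgeR fit, 356 of 356 and 679 of 679 cervical control genes kept their sign, against 87.0% of all genes. Lumbar and cervical libraries share animals, and the dosed animals differ from the controls in treatment as well.

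**Figure D5:**
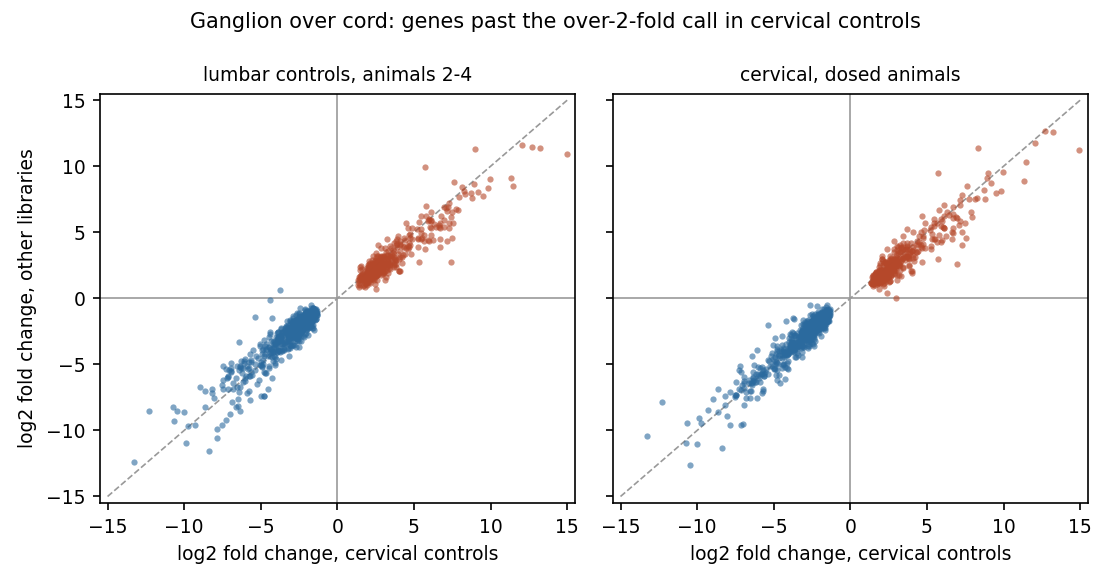
Log2 fold change of ganglion over cord in lumbar controls without animal 1 (left) and in cervical libraries of dosed animals (right), against that in cervical controls, for the genes past the test for over 2-fold there. Red points are higher and blue points lower in ganglia, the dashed line marks equal values, and 1 gene of 677 on the cord side changes sign in the left panel and 0 in the right.

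Whether the difference between ganglion and cord itself differed between cervical and lumbar levels was tested by an interaction over the 16 control libraries. No gene of 14706 passed (0.00%) in edgeR, 1085 had an unadjusted p under 0.05, and the smallest adjusted p was 0.398. Without the lumbar cord library of animal 1, 1069 had an unadjusted p under 0.05.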

How the data were processed

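RNA was sequenced from 6 tissues of 10 monkeys, and 8 cervical control libraries carry the main comparison. The authors deposited raw counts per gene name. Per the submitters' processing notes reads were aligned with STAR 2.5.3a, and per the file headers counted with featureCounts 1.4.6-p1 on Ensembl release 94 of Macaca_fascicularis_5.0. The recorded command sets neither strand nor paired counting, so each mate counted once, and reads of overlapping or antisense genes cannot be told apart. Of 16842 gene names, 140 lie on more than 1 chromosome. Genes were filtered by filterByExpr, scaled by TMM and tested in edgeR 4.0.16 (quasi-likelihood, R 4.3.3), with animal as a block and Benjamini-Hochberg adjusted p under 0.05. Differences over 2-fold were tested with glmTreat. DESeq2 1.42.0, limma 3.58.1 (voom), other scalings, other filters, no block and leaving out each animal were alternatives. The scripts were tested on simulated counts. The ganglia and cords come from the same animals, and deviations of same-numbered libraries from their group means correlated at -0.17, 0.32, 0.27 and -0.32 for animals 1 to 4. TPM was computed from the counts and the deposited gene lengths. In 45 gene lists, 866 of 902 written members are in the table, and the others were not analysed here. Values of some list members are not reported here. Named genes are the 15 largest differences over 2-fold in each direction with at least 1 CPM and no overlap, the called members of each list with the highest TPM or against its direction, members not called, and defining genes. In the 4 lists that hold genes with no count in one tissue, medians were equal with those genes at their bound. The comparison, members and lists were chosen with earlier results of these data known. Counting floors (3 counts) and 95% intervals cover counting error only. They take each count as independent, but both mates of a pair can be counted. The intervals can thus be too narrow and the bounds from the floor too high.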

Additional observations from a re-analysis of the deposited data

Results flagged for a closer look

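Groups of 4 libraries (a named gene in 1 tissue) were read for outliers. In 48 of 376 groups, 1 library lay far from the other 3, past Dixon's 95% critical value. Chance gives about 1 in 20 only for normally distributed values. CPM were read unlogged, and a gene counted in 1 library alone always lies past that value. The number of groups found is thus not set against that rate. Values are CPM of that library. Cord 1 was the high library for 15 genes, most of them of peripheral nerve and connective tissue: CHRDL1 (237), CLDN1 (26.7), COL4A1 (134), COL4A2 (274), COL8A1 (23.5), DCN (1132), FBLN2 (59.8), FBLN5 (89.1), LUM (134), NGFR (35.1), PMP22 (3256), PRX (1539), STAB1 (75.9), THBS1 (39.7) and TRARG1 (1.39). It was the low library for CACNA1I (1.36). Cord 4 was the high library for ADIPOQ (0.145), CALCA (9.67), CALCB (41.5), CHAT (20.7), COL4A4 (12.9), ISL2 (1.71), SLC10A2 (0.0965) and SLC10A4 (51.2), and the low one for APOE (405). Cord 2 was high for TMEM125 (21.6), and cord 3 for CACNB3 (38.1), DRGX (4.57) and STX1A (16.2).

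Ganglion 4 was the high library for ADIPOQ (30.2), CHRDL1 (564), CLDN1 (448), COL8A1 (130.0), MBP (2138) and OLIG2 (0.0203). It was the low one for CACNA1I (0.122), HOXD1 (11.8), L1CAM (393), PVALB (51.4), SLC18A2 (42.2), SYNM (527) and TRPV2 (79.6). Ganglion 2 was high for CKM (2.17) and SALL3 (0.0813) and low for SORT1 (86.1), and ganglion 3 was high for DAO (0.122), GRIK2 (70.7) and NTS (2.56). OLIG2, SLC10A2, SALL3, DAO and ADIPOQ in these tissues rest on a few counts. The cause of these differences was not tested.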

How the results depend on the processing

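Of the 160 named genes that passed with all animals, 0 changed sign under any alternative and 148 passed without animal 1. Under every alternative that left out no whole animal, the one without block and cord 1 included, 153 were kept. A gene absent from a fit, or without an adjusted p in it, counted as kept there. Leaving out animals gave 251 to 3209 genes higher and 496 to 3477 lower, with 45 to 548 and 112 to 850 over 2-fold; animals 2 and 3 gave the low ends, where 83 and 84 named genes no longer passed. DESeq2 called 3734 genes higher and 607 higher over 2-fold. Without the replicate block 3228 genes were higher, 615 of them over 2-fold, and without the block and cord 1, an alternative chosen after seeing the data, 3668 and 967 were higher and 1134 lower over 2-fold. Lumbar controls gave 2181 higher and 2511 lower without the block, and 2398 and 2767 without animal 1. In dosed animals limma voom with animal as a random block gave 3504 and 3701. Genes that passed with all animals but not without animal 4 were CACNA1E (-2.73), CACNA2D1 (1.75), COL28A1 (3.67), DRGX (5.89), GAD1 (-8.24), GRIK1 (2.95), LHFPL3 (0.44), NMUR2 (-3.82), SCN3A (-2.75) and SLC6A5 (-6.38). Without the block LUM (2.68), NTS (-3.49), COL4A4 (-1.07) and LHFPL3 (0.55) did not pass. Signs changed only in genes that did not pass. CHAT was at -2.18 without the block, -1.19 in limma voom and -2.62 without block and cord 1. Without block and cord 1, EYA2 was at 0.28, PMP2 at 0.31, SNAP25 at -0.0037 and SST at -0.13. Leaving out animals gave ranges of -0.53 to 0.29 for EYA2, -0.13 to 0.58 for PECAM1, -0.60 to 0.31 for PMP2, -0.29 to 0.16 for SLC2A1 and -0.094 to 2.06 for SNAP25. Of 585 list medians recomputed, 12 moved by more than the spread between animals, among them that of motor neuron genes, which was 1.13 with and -1.14 without the block. Other scalings moved the median of all genes by 0.03 at most on the log2 scale. The cause of these shifts was not tested. Depth limits genes near the floor of 3 counts.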

Other observations

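The most abundant transcripts also set the tissues apart on the TPM scale, which corrects for length. In ganglia B2M, a subunit of class I histocompatibility molecules, led at a mean of 5480.0 TPM, followed by APOD, a lipid carrier of peripheral nerve, at 5065 TPM. UCHL1 came next at 5053 TPM, NEFM, the medium neurofilament, at 3985 TPM and NEFL, the light neurofilament, at 3543 TPM. NEFH was also among the 15 most abundant, at 2484 TPM. In cord genes of glia led, among them MBP at 27150.0 TPM, GFAP at 6335 TPM and S100B at 6289 TPM. PTGDS, a prostaglandin D synthase secreted into the cerebrospinal fluid, followed at 5105 TPM, and SPARC, a matrix glycoprotein, was near in both tissues, at 3204 TPM in cord and 3185 TPM in ganglia. These are means over 4 libraries, and cord 1 is among them.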
